A study of Mus musculus with 8 samples.

Results

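Mammalian mitochondria carry ribosomes of their own, and the protein part of these ribosomes is encoded in the nucleus by the Mrpl genes (large subunit) and the Mrps genes (small subunit). Every gene with a symbol that begins with Mrpl or Mrps and a digit was taken here, once the probes of the arrays had been named through their transcript accessions. Of 18749 genes with a named probe, 78 met this rule. A further 6 symbols of the gene table met it but are pseudogenes and had no matched probe (Mrpl23-ps1, Mrpl27-ps, Mrpl48-ps, Mrps36-ps1, Mrps36-ps2 and Mrps36-ps3). Of the 78 genes, 77 were tested, 50 counted to the large and 27 to the small subunit. Mrps18a and Mrps30 were counted to the large subunit, where their products sit. All others were placed by symbol alone, and whether each product is part of the ribosome was not checked. All 77 were well above background on all 8 arrays, so none entered through 1 genotype alone.

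The mitochondrial ribosome translates the few proteins that mitochondrial DNA encodes, all of them core subunits of the respiratory chain and ATP synthase. Its proteins are made on cytosolic ribosomes, imported and assembled on mitochondrial ribosomal RNA with the help of GTPases, RNA methylases and helicases. Some have a counterpart in bacteria and others are specific to mitochondria. The secretory epithelium of the lactating gland is rich in mitochondria, which supply ATP and citrate for the synthesis of milk.

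RNA came from mammary glands of C57/Bl6 females on lactation day 1, with 4 samples from wild-type (WT) females and 4 from females without Th-POK (knockout, KO), and each sample was hybridised to a 1-colour Agilent mouse array. Th-POK, encoded by Zbtb7b, is a zinc finger transcription factor needed for the helper T cell lineage, and the comparison asks what the gland expresses differently without it. The mutation is carried by the whole animal, and the glands hold epithelium, fat, stroma and immune cells. The females were age matched, and the methods of the arrays give no age. An age at mating is given beside the pup survival assay, and other ages beside other assays. Whether glands were pooled was not given in the sources used here. All values are log2 signals after quantile normalization, and a difference is KO minus WT on that scale. A gene was called at an adjusted p under 0.05 in limma with Benjamini-Hochberg adjustment over 14137 genes. Unless a block is named, the fit did not pair samples of the same replicate number.

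Zbtb7b checked the labels. Its signal was 9.90, 10.42, 10.13 and 10.23 on the WT arrays and was not well above background on any KO array, at least 81.5-fold lower (limma adjusted p = 5.71e-09). The share of probes well above background ran from 66.8 to 75.3% over the arrays, and the number of arrays limits the precision. The WT samples shared 1 slide and the KO samples the other slide, which means that genotype and slide cannot be told apart in any value below. Whether the probe of Zbtb7b lies in the deleted part of the gene was not given in the sources used here. Csn2 and Wap, the milk protein genes that define the secretory gland, were measured on every array, with means of 17.76 and 18.39 in WT and 17.77 and 18.47 in KO.

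Cell type markers differed in part. The mean log2 signal of 8 luminal markers was 15.35 to 15.52 on the WT arrays and 15.59 to 15.71 on the KO arrays. The median log2 signal of the same 8 markers overlapped between the genotypes. In KO, 6 of the 8 were higher (Krt18, Epcam and Cdh1 called), and Elf5 (-0.35) and Lalba (-0.45) were lower, neither called. For 8 adipocyte markers the mean was 13.17 to 13.80 in WT and 13.74 to 13.98 in KO. Of these markers 7 were higher in KO (Plin1 and Cfd called), and Lep was lower (-0.73, not called). For 5 fibroblast markers the mean was 13.46 to 13.65 in WT and 13.69 to 14.30 in KO (Dcn called higher). Of 5 neutrophil markers tested, Ngp, Camp and Ltf were called higher in KO. Ngp and Camp were not well above background on any WT array and so entered through KO alone, and Elane was not well above background on any array. The mean of the 5 was 8.02 to 8.90 in WT and 10.51 to 11.73 in KO, a gap that includes those background values, and their median overlapped, at 8.68 to 11.52 in WT and 10.79 to 12.14 in KO. T cell markers had means of 6.38 to 7.52 in WT and 6.41 to 6.76 in KO, with Cd3e and Cd4 called lower. The ranges of the genotypes overlapped for markers of basal epithelium (none of 6 called), macrophages (none of 5), endothelium (none of 4) and B cells (1 of 4, Cd79b, called higher). Of the 4 B cell markers 2 were higher and 2 lower, among them Cd79a at -0.72 (limma adjusted p = 0.0511, not called). The part of these cell types in the values of the ribosomal genes was not tested, and in whole glands fewer cells of a type and less RNA per cell cannot be told apart.

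RefSeq promoter windows (build GRCm38.p6, 250 bases before to 50 after the start site) were found for 69 of the 78 genes, those without one being Mrpl4, Mrpl13, Mrpl15, Mrpl19, Mrpl38, Mrpl54, Mrps28, Mrps34 and Mrps35. To show what kind of promoter the genes with the smallest p have, the 150 bases before the start site are printed for the 3 genes called lower in KO with the smallest p, Mrps27 (chr13:99344636-99344785, plus strand), Mrps7 (chr11:115603990-115604139, plus strand) and Mrps18b (chr17:35916441-35916590, minus strand), and for Mrpl9 (chr3:94443186-94443335, plus strand), the 1 gene called higher. Capitals mark a match of 1 of 3 motifs on either strand: the ETS core CCGGAAG, the NRF-1 type motif (GCGCA and GCGC with any 1 base between them), and the YY1 type motif AAGATGGC.
Mrps27: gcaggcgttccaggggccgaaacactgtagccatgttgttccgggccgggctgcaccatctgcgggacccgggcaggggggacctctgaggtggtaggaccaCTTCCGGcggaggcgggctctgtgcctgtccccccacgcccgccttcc
Mrps7: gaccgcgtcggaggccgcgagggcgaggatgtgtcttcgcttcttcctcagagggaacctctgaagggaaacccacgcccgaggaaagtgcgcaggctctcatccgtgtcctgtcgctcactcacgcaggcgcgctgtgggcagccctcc
Mrps18b: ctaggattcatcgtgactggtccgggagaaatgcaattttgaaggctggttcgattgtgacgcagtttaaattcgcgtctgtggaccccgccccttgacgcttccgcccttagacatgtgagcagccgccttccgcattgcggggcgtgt
Mrpl9: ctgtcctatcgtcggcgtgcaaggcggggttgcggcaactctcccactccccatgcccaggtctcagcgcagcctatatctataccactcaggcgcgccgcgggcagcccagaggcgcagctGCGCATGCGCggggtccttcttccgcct
The stretch of Mrps27 held an ETS core 48 to 42 bases before the start, that of Mrpl9 an NRF-1 type motif 28 to 19 bases before it, and those of Mrps7 and Mrps18b held none of the 3. In the 50 bases after the start, which are not printed, Mrps27 and Mrps7 had a YY1 type match, which began at base 15 and base 19, and Mrps18b had an ETS core from base 44 to base 50.

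Over the whole window the ETS core was present in 26 of the 69 members (37.7%), beside 17.8% of the 11228 tested genes with a window and 9.93% of all 27025 genes of the promoter table. The NRF-1 type motif was present in 13 members (18.8%, beside 10.1% of tested genes and 5.19% of all genes), and the YY1 type motif in 12 (17.4%, beside 4.75% and 3.19%). Among members called lower in KO the ETS core was present in 6 of 15, beside 20 of 53 other tested members. The NRF-1 type motif was present in 3 of 15 beside 10 of 53, and the YY1 type motif in 4 of 15 beside 8 of 53. These are counts of letters and not of bound sites, and the shares were not tested.

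Mitochondrial ribosomal protein genes were mostly lower in KO glands, by small amounts. Of 77 tested, 68 had a lower and 9 a higher mean in KO, and the median difference was -0.22, a KO signal of 85.9% of WT, beside a median of -0.02 over all genes tested. At an adjusted p under 0.05, 20 members (26%) were called lower, beside 8.96% of all genes, and 1 member, Mrpl9, was called higher, beside 7.53% of all genes. None differed by 2-fold and was called, beside 4.37% of all genes in either direction. The members called lower had KO signals between 61.2 and 80.4% of WT. All 20 were lower in KO in each of the 4 pairs of the same replicate number. For 18 of them this was fixed in advance, because their genotypes did not overlap. Among all tested, 47 of 77 members and 3620 of 14137 genes were lower in all 4 pairs.

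Without adjustment, 36 members were lower and 4 higher at p under 0.05, where 19.6 and 16.7% of all genes were. The methods' t-test at the same unadjusted threshold gave 43 lower members, beside 18.1% of all genes, and after Benjamini-Hochberg adjustment it called 17 lower (5.63% of all genes) and 1 higher. The 4 KO values lay below all 4 WT values in 30 members (39.0%), beside 12.9% of all genes. They lay above in 5 members, Mrpl9, Mrps18a, Mrpl23, Mrps36 and Mrpl33, beside 11.1% of all genes.

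**Figure D1:**
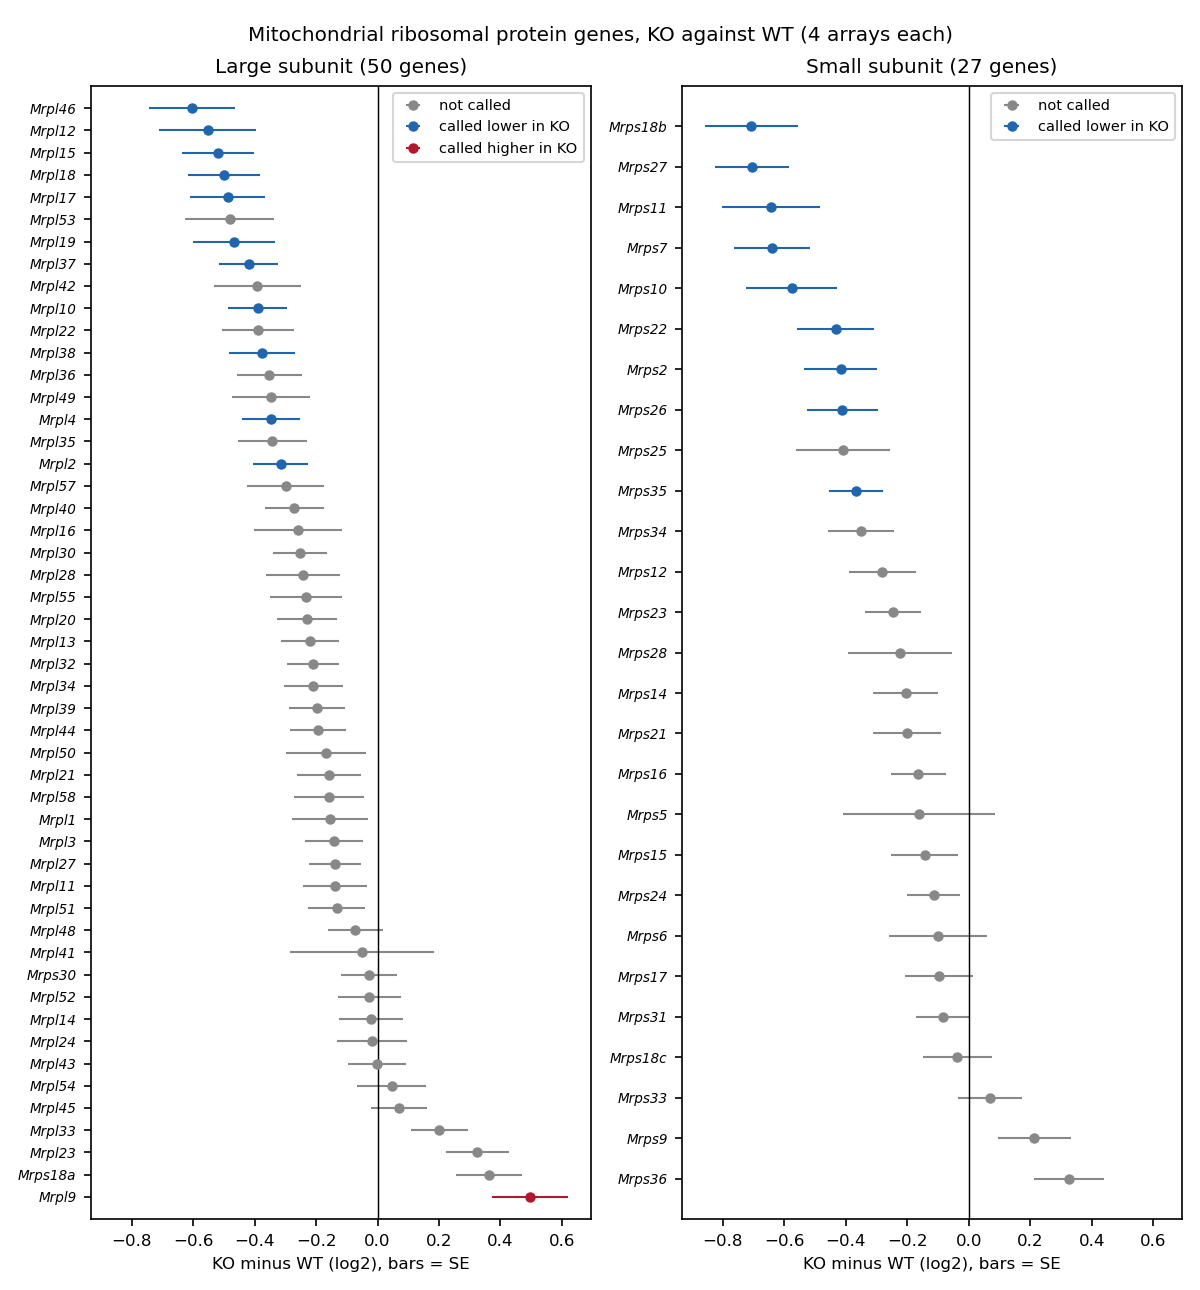
KO minus WT log2 differences of the 77 genes tested, large subunit on the left and small subunit on the right, sorted by size, with bars for the SE of the limma fit (4 arrays per genotype). Blue marks the 20 genes called lower in KO and red the 1 called higher, and most grey points also lie left of 0.

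The calls depended on single arrays, while the direction of most members did not. Leaving out WT2, WT3, KO1 or KO2 left Mrps27 and Mrps7 as the members called lower, and leaving out KO3 left Mrps27 and Mrpl15, 2 members (2.6%) in each fit. The share of all genes called lower fell as well, to 2.77, 3.59, 2.72, 3.52 and 1.75% in these 5 fits, so the share of the members then lay near that of all genes. At an unadjusted p under 0.05 the same 5 fits had 25 to 30 members lower (32.5 to 39.0%), beside 14.6 to 16.9% of all genes. Without WT4, 12 members were called lower (7.14% of all genes), without WT1 21 (11.9%) and without KO4 18 (8.98%). In these 8 fits between 65 and 67 members had a lower mean in KO and the median lay between -0.27 and -0.19.

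Blocking on the replicate number, 13 members (16.9%) were called lower, beside 10.8% of all genes, so the share of the members was smaller and that of all genes larger than without the block. Of the 13, 12 were also called without it, and none was called higher (limma, 4 higher at an unadjusted p under 0.05). Each position on a slide held 1 WT and 1 KO array, and with position as a block, an alternative chosen after the data were seen, no member was called, the smallest adjusted p being 0.0736. At an unadjusted p under 0.05 that fit had 24 members lower (31.2%, beside 15.5% of all genes) and 3 higher, and it called 59 of all genes lower. Within the 4 pairs of the same position the median difference of the members was -0.32, -0.15, -0.19 and -0.22, with 62, 64, 59 and 58 of 77 lower. Within the pairs of the same replicate number it was -0.19, -0.35, -0.25 and -0.18, with 57, 64, 63 and 63 lower.

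**Figure D2:**
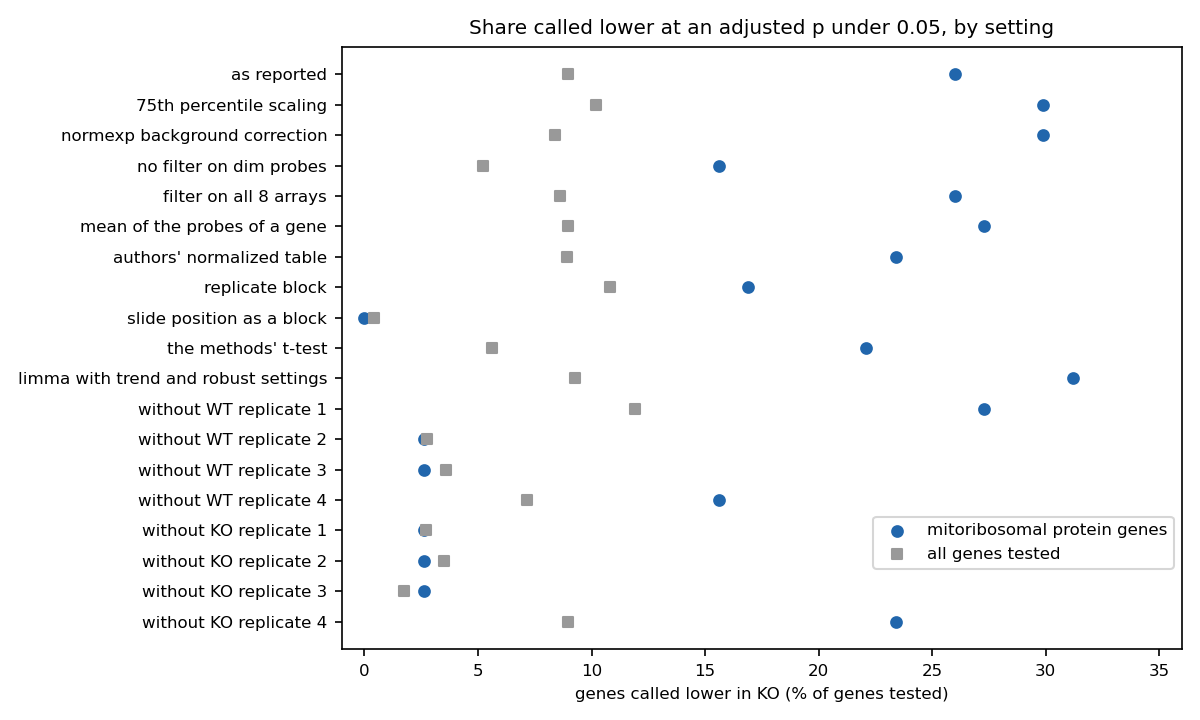
Percentage of genes called lower in KO at an adjusted p under 0.05 among the 77 mitochondrial ribosomal protein genes (blue circles) and all genes tested (grey squares), as reported and under each alternative. The blue point lies at 26% as reported, at 0 with slide position as a block, and at 2.6%, next to the grey squares, without any 1 of WT2, WT3, KO1, KO2 and KO3.

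Small subunit genes had 9 of 27 members called lower (33.3%, beside 8.96% of all genes) and none higher, with 24 of 27 lower in the mean, where 52.4% of all genes were, and a median of -0.22. With the replicate block 6 of 27 were called lower (22.2%, beside 10.8% of all genes). Mrps27 encodes a pentatricopeptide repeat protein that binds ribosomal RNA, and its log2 signal was 8.32, 8.76, 8.58 and 8.43 on the WT arrays and 7.78, 7.95, 7.72 and 7.83 on the KO arrays. Every KO value lay below every WT value, a difference of -0.70 ± 0.12 (SE), or 61.4% of WT (limma adjusted p = 0.0133). It was the only member called under every alternative except slide position as a block, where it was at an adjusted p of 0.0736.

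Mrps7, a protein of the head of the subunit with a bacterial counterpart, measured 11.24, 11.72, 11.54 and 11.51 on the WT arrays and 10.88, 10.87, 10.73 and 10.97 on the KO arrays. The genotypes did not overlap, and the KO signal was 64.2% of WT, -0.64 ± 0.12 (SE) (adjusted p = 0.0171). A second probe for Mrps7 gave -0.57. Mrps18b, one of the Mrps18 paralogues related to a bacterial protein, measured 9.24, 9.48, 9.46 and 8.86 on the WT arrays and 8.56, 8.41, 8.61 and 8.64 on the KO arrays. WT4 was the lowest WT value, still above all KO values, and the difference was -0.71 ± 0.15 (SE) (adjusted p = 0.0218).

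Mrps11 and Mrps10 also have bacterial counterparts. Mrps11 measured 9.16, 9.69, 9.56 and 9.65 on the WT arrays and 8.68, 8.88, 8.74 and 9.18 on the KO arrays, so that KO4 lay within the WT range, and the difference was -0.64 ± 0.16 (SE) (adjusted p = 0.0324). Mrps10 measured 11.62, 12.14, 11.78 and 11.97 on the WT arrays and 11.46, 11.18, 11.10 and 11.48 on the KO arrays, with no overlap, and the difference was -0.58 ± 0.15 (SE) (adjusted p = 0.0351, just above the threshold with the replicate block). Mrps35, specific to mitochondria, measured 10.77, 10.87, 10.94 and 10.76 on the WT arrays and 10.48, 10.50, 10.46 and 10.44 on the KO arrays, without overlap, and fell by 0.37 on the log2 scale (adjusted p = 0.0296). Mrps26, also specific to mitochondria, measured 12.43, 12.59, 12.63 and 12.20 on the WT arrays and 12.04, 12.02, 12.09 and 12.06 on the KO arrays, with WT4 the lowest WT value and no overlap. Mrps26 and Mrps2, a further gene with a bacterial counterpart, had differences of -0.41 ± 0.12 (SE) and -0.42 ± 0.12 (SE) (adjusted p = 0.0438 and 0.0457). Neither was called with the replicate block (adjusted p = 0.0572 and 0.0690). A second probe gave -0.46 for Mrps26 and -0.18 for Mrps2, and Mrps2 was not called when its probes were averaged. Mrps22, specific to mitochondria, had -0.43 ± 0.13 (SE) and the largest adjusted p of the 20 (0.0483).

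Large subunit genes had 11 of 50 members called lower (22%, beside 8.96% of all genes) and 1 higher (beside 7.53%), with 44 of 50 lower in the mean and a median of -0.22. With the replicate block 7 of 50 were called lower (14%, beside 10.8% of all genes) and none higher. Mrpl15, with a bacterial counterpart, measured 9.52, 9.84, 9.64 and 9.76 on the WT arrays and 8.99, 9.18, 9.36 and 9.15 on the KO arrays. The genotypes did not overlap, and the difference was -0.52 ± 0.12 (SE), or 69.7% of WT (adjusted p = 0.0255). Mrpl37, specific to mitochondria, measured 9.01, 9.03, 9.20 and 9.09 on the WT arrays and 8.70, 8.57, 8.59 and 8.79 on the KO arrays, again without overlap, and fell by 0.42 on the log2 scale (adjusted p = 0.0267). Mrpl17, with a bacterial counterpart, measured 11.78, 12.18, 11.96 and 11.82 on the WT arrays and 11.48, 11.32, 11.38 and 11.61 on the KO arrays, and the difference was -0.49 ± 0.12 (SE) (adjusted p = 0.0325, or 0.0596 with the replicate block). Mrpl4, Mrpl2 and Mrpl19 differed by -0.35 ± 0.09 (SE), -0.31 ± 0.09 (SE) and -0.47 ± 0.13 (SE) (adjusted p = 0.0395, 0.0458 and 0.0473). Mrpl4 and Mrpl2 were not called with the replicate block (adjusted p = 0.0567 and 0.0645).

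The central protuberance is where the large subunit faces the small one. The list taken for it, Mrpl18, Mrpl38, Mrpl40, Mrpl46 and Mrpl48, need not hold every gene there. Of these 5, 3 were called lower, beside 8.96% of all genes (median -0.38), or 2 of 5 with the replicate block, beside 10.8%. Mrpl46 measured 10.46, 10.95, 10.81 and 10.99 on the WT arrays and 10.22, 10.09, 10.10 and 10.39 on the KO arrays. The lowest WT value was WT1 and all KO values lay below it, a difference of -0.60 ± 0.14 (SE) (adjusted p = 0.0277). Mrpl18 measured 11.87, 12.31, 12.04 and 12.14 on the WT arrays and 11.58, 11.49, 11.59 and 11.70 on the KO arrays, without overlap, and its 3 probes ranged from -0.59 to -0.50 (adjusted p = 0.0282). Mrpl38 had -0.38 ± 0.11 (SE) (adjusted p = 0.0468, or 0.0821 with the replicate block). A second probe for Mrpl38 gave -0.27, and Mrpl38 was not called when its probes were averaged. Mrpl40 was at -0.27 ± 0.09 (SE) and Mrpl48 at -0.07 ± 0.09 (SE), both not called (adjusted p = 0.0800 and 0.596).

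The stalk recruits translation factors to the ribosome. Of the 4 genes taken for it, 2 were called lower, beside 8.96% of all genes (median -0.44), or 1 of 4 with the replicate block, beside 10.8%. Mrpl10, the base of the stalk, measured 10.89, 11.03, 10.98 and 10.83 on the WT arrays and 10.61, 10.43, 10.52 and 10.62 on the KO arrays. There was no overlap, and the difference was -0.39 ± 0.10 (SE) (adjusted p = 0.0312, or 0.0595 with the replicate block). Mrpl12, the stalk protein that contacts the factors, measured 13.57, 13.99, 14.07 and 13.98 on the WT arrays and 13.09, 13.49, 13.21 and 13.60 on the KO arrays, with KO4 above WT1 (difference -0.55 ± 0.16 (SE), adjusted p = 0.0472). Mrpl53 and Mrpl11 were at -0.48 ± 0.14 (SE) and -0.14 ± 0.11 (SE) and were not called (adjusted p = 0.0535 and 0.373).

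New proteins leave towards the inner membrane at the exit of the tunnel. The list taken for this exit, which need not hold every gene there, had none of 4 tested genes called and a median of 0.03. In limma 1 was lower and 1 higher at an unadjusted p under 0.05. Mrpl22 was at -0.39 ± 0.12 (SE), Mrpl24 at -0.02 ± 0.11 (SE), Mrpl45 at 0.07 ± 0.09 (SE) and Mrpl23 at 0.32 ± 0.10 (SE) (adjusted p = 0.0542, 0.928, 0.605 and 0.0612). The fifth gene of the list, Mrpl47, was not tested, because its spot on KO4 was marked as an outlier. Its signal was 9.60, 9.85, 9.76 and 9.63 on the WT arrays and 9.11, 9.24 and 9.39 on the 3 other KO arrays, all below the WT values. Differences between these structural groups were not tested.

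**Figure D3:**
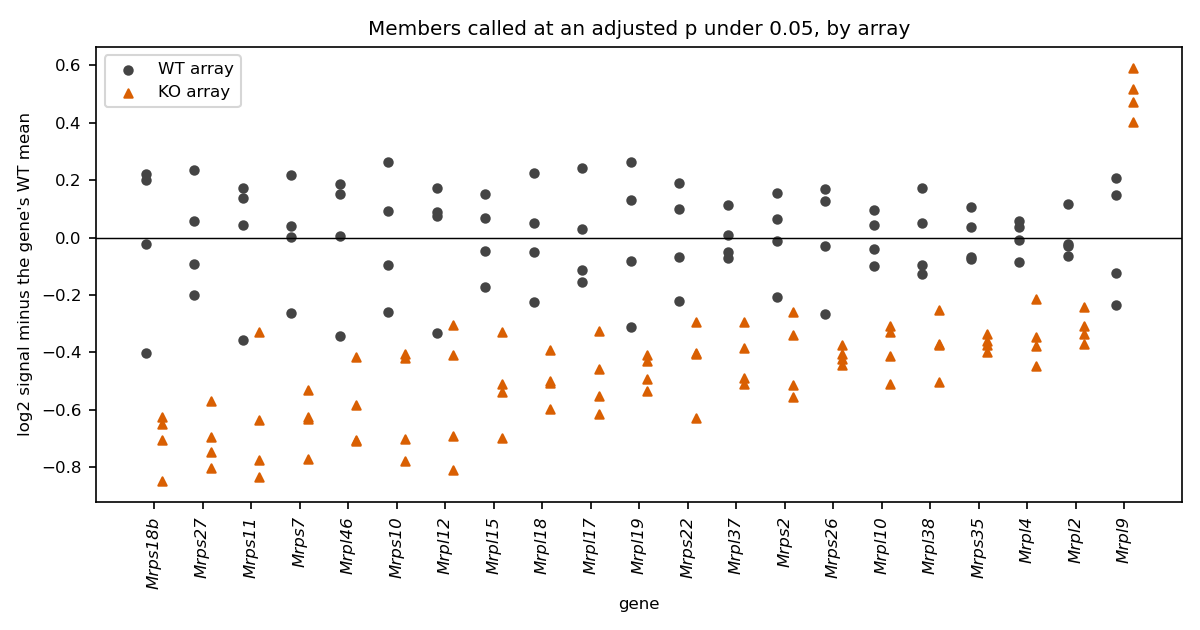
Log2 signal on each array minus the WT mean of the same gene, for the 21 genes called at an adjusted p under 0.05, WT arrays as dark circles and KO arrays as orange triangles. The KO values lie below the WT values in 18 of the 20 genes called lower, touch the WT range in Mrps11 and Mrpl12, and lie above it in Mrpl9. These genes were picked by their p on the same arrays.

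Mrpl9, which has a bacterial counterpart, was the exception among the called genes. It measured 9.51, 9.07, 9.18 and 9.45 on the WT arrays and 9.78, 9.90, 9.82 and 9.71 on the KO arrays, so that every KO value was above every WT value. The difference was 0.50 ± 0.12 (SE), or 141% of WT (adjusted p = 0.0327, or 0.0554 with the replicate block), and it was not called without WT2, WT3, KO1, KO2 or KO3. Of the other genes whose KO values lay above all WT values, Mrps18a measured 12.60, 12.45, 12.57 and 12.30 on the WT arrays and 12.96, 12.70, 12.85 and 12.86 on the KO arrays, a difference of 0.36 ± 0.11 (SE) (adjusted p = 0.0523). Mrpl23, Mrps36 and Mrpl33 were at 0.32 ± 0.10 (SE), 0.33 ± 0.11 (SE) and 0.20 ± 0.09 (SE), and none of these was called. The paralogues Mrps18a, not called, and Mrps18b, called lower, had differences of opposite sign, while the other paralogue, Mrps18c, was at -0.04 ± 0.11 (SE). Near the threshold but not called were Mrpl53, Mrpl22, Mrpl36 and Mrps34, with differences of -0.48, -0.39, -0.35 and -0.35 and adjusted p from 0.0535 to 0.0563.

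The counts were also taken by origin. Of 47 tested genes with a bacterial counterpart, 13 were called lower (27.7%) and 1 higher, with a median of -0.22, and of 30 genes specific to mitochondria 7 were called lower (23.3%), with a median of -0.22, beside 8.96% of all genes called lower and 7.53% called higher. With the replicate block it was 7 of 47 (14.9%) and 6 of 30 (20%), the other order, beside 10.8% of all genes. The difference between these groups was not tested.

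The share called also varied with the brightness of the probe, which is no measure of level between genes. Members were divided into 3 groups by their mean log2 signal over all arrays. Among the dimmest (8.17 to 11.18), 14 of 26 were called lower (53.8%), beside 8.59% of the 5719 genes in that signal range. In the middle group (11.24 to 12.58) it was 5 of 25 (20%, beside 8.53% of 1875 genes), and among the brightest (12.64 to 14.79) 1 of 26, Mrpl12 (3.85%, beside 6.27% of 1117 genes). The medians of the 3 groups were -0.38, -0.21 and -0.15.

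The dimmest probes were those of Mrps27, Mrpl37 and Mrps18b, all called lower. The brightest were those of Mrpl33, Mrpl57 and Mrpl51, with differences of 0.20 ± 0.09 (SE), -0.30 ± 0.13 (SE) and -0.13 ± 0.09 (SE), none called (adjusted p = 0.158, 0.125 and 0.332). No spot was saturated on any array. What brightness contributed to the calls was not tested.

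**Figure D4:**
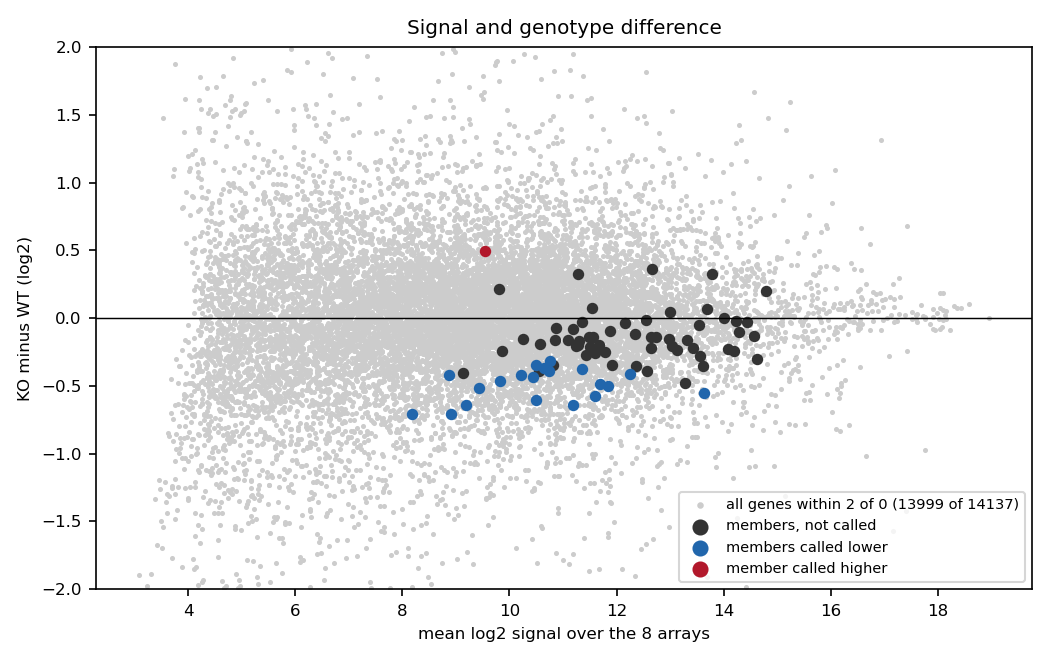
KO minus WT log2 difference against the mean log2 signal of each gene over the 8 arrays, for the 77 mitochondrial ribosomal protein genes (large points) and for the 13999 of 14137 tested genes within 2 of 0 (light grey). The members called lower (blue) lie mostly at signals between 8.17 and 12.3, with Mrpl12 alone among the bright ones.

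Probes of the same gene mostly agreed in sign. More than 1 probe passed the filter for 26 members, and in 25 of them all probes had the same sign. The exception was Mrps33, with probes from -0.10 to 0.13, none called. Mrps17 had probes of the same sign and unequal size, -0.10 for the brighter probe, which stood for the gene and was not called, and -0.65 for the other (limma adjusted p over probes = 0.0168). Mrps17 was called lower when its probes were averaged. Mrpl11, Mrpl41 and Mrpl57 each had a further probe that was not well above background on all 4 arrays of either genotype and was left out.

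Within a genotype the order of the arrays was uneven over the members. WT1 was the lowest WT array in 41 of 77 members and WT2 the highest in 32, and KO2 was the lowest KO array in 31 and KO4 the highest in 39. The SD over the 4 arrays had a median of 0.136 in WT and 0.0995 in KO over the members, and of 0.227 and 0.194 over all genes. In WT it ran from 0.0344 in Mrpl51 to 0.486 in Mrps5. In KO it ran from 0.0146 in Mrpl28 to 0.414 in Mrpl41. Taken as the median difference of the members from their WT means, the WT arrays stood at -0.07, 0.07, 0.04 and -0.01. The KO arrays stood at -0.25, -0.26, -0.25 and -0.20, so the genotypes did not overlap. The same median over all genes tested did not overlap either, at -0.013 to 0.013 in WT and -0.031 to -0.014 in KO.

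Other parts of mitochondrial translation were described by lists outside the symbol rule. Of the 5 proteins of the mitochondrial ribosome with other names, Ptcd3 and Gadd45gip1 were called lower (40%, beside 8.96% of all genes). Aurkaip1, Chchd1 and Dap3 were not called, and the median of the 5 was -0.18. With the replicate block 1 of 5 was called lower, beside 10.8% of all genes. Ptcd3, a pentatricopeptide repeat protein of the small subunit, measured 12.56, 13.28, 12.71 and 12.77 on the WT arrays and 12.11, 12.30, 12.28 and 12.34 on the KO arrays, without overlap. Its difference was -0.57 ± 0.16 (SE) (adjusted p = 0.0433), and that of Gadd45gip1, in the large subunit, was -0.45 ± 0.13 (SE) (adjusted p = 0.0437, or 0.0515 with the replicate block). Neither call held without WT2, WT3, WT4, KO1, KO2 or KO3, when none of the 5 was called, as with slide position as a block (limma, 2 lower at an unadjusted p under 0.05).

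Mitochondrial translation factors and activators had all 14 means lower in KO, 2 of them called (14.3%, beside 8.96% of all genes, median -0.22). Lrpprc, which keeps mitochondrial mRNAs stable, measured 11.77, 11.87, 11.85 and 11.68 on the WT arrays and 11.22, 11.31, 11.28 and 11.35 on the KO arrays. The difference was -0.50 ± 0.09 (SE) without overlap (adjusted p = 0.0149), and Taco1, an activator of the translation of a cytochrome c oxidase subunit, had -0.42 ± 0.11 (SE) (adjusted p = 0.0381). Leaving out 1 array gave between 0 (without KO3) and 4 (without WT1) called, 1 without WT2, WT3, WT4, KO1 or KO2 and 3 without KO4. With the replicate block 2 of 14 were called lower, beside 10.8% of all genes. With slide position as a block none was called (limma, 4 lower at an unadjusted p under 0.05).

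Factors of ribosome assembly and RNA processing had 21 of 28 tested genes lower in the mean and 6 called lower (21.4%, beside 8.96% of all genes, median -0.25). None was called higher as reported, with Rpusd4 and Mterf4 higher at an unadjusted p under 0.05 (differences of 0.37 and 0.29), but 2 were without WT1 and 1 with trend and robust settings. Noa1, a GTPase of small subunit assembly, measured 9.74, 9.93, 9.71 and 9.68 on the WT arrays and 8.68, 9.18, 9.10 and 9.11 on the KO arrays. Its difference of -0.75 ± 0.13 (SE) (adjusted p = 0.0143) was called in every alternative except slide position as a block. Elac2, which cuts the ends of precursor tRNAs, and Mtg2, a GTPase of the large subunit, were at -0.63 ± 0.12 (SE) and -0.45 ± 0.10 (SE) (adjusted p = 0.0152 and 0.0234). Tfb1m, which methylates the small subunit RNA, Fastkd2 and Ybey were also called, of which Fastkd2 and Ybey were not called with the replicate block (adjusted p = 0.0538 and 0.0697). The count was 1 without KO3, 2 without WT2, WT3 or KO1, and 4 or 5 without the other arrays. With the replicate block 4 of 28 were called lower, beside 10.8% of all genes. With slide position as a block it was none (limma, 7 lower at an unadjusted p under 0.05).

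Mitochondrial aminoacyl-tRNA synthetases, which charge the tRNAs for this ribosome, had 14 of 17 lower in the mean and 5 called lower (29.4%, beside 8.96% of all genes, median -0.24). Ears2, Yars2 and Nars2 were at -0.65 ± 0.12 (SE), -0.46 ± 0.11 (SE) and -0.61 ± 0.15 (SE) (adjusted p = 0.0149, 0.0299 and 0.0312). Ears2, the glutamyl enzyme, measured 8.92, 9.40, 9.15 and 9.13 on the WT arrays and 8.46, 8.54, 8.48 and 8.54 on the KO arrays, with every KO value below every WT value. Aars2 and Cars2 were the others called. The count was 0 without KO3, 1 without WT2, WT3 or KO1, 2 without WT4 or KO2, 6 without KO4 and 7 without WT1. With the replicate block 6 of 17 were called lower, beside 10.8% of all genes. With slide position as a block none was called (limma, 7 lower at an unadjusted p under 0.05).

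Regulators of mitochondrial transcription and biogenesis were split in direction, with 5 of 12 tested genes lower, 7 higher and a median of 0.06. None was called lower (limma, 2 at an unadjusted p under 0.05, and 1 by the methods' t-test), and Ppargc1a, the coactivator of mitochondrial biogenesis, was called higher. It measured 7.15, 6.22, 7.57 and 7.73 on the WT arrays and 8.07, 8.19, 9.12 and 8.33 on the KO arrays, without overlap, a difference of 1.26 ± 0.36 (SE) (adjusted p = 0.0453). The call was lost when any 1 array other than WT4 was left out. It was also lost with no filter on dim probes, when probes were averaged, with slide position as a block and by the methods' t-test. In all, 7 of 18 alternatives kept it. The adipocyte markers Plin1 and Cfd were also called higher in KO, as given above, and their part in this value was not tested.

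Nuclear subunits of the respiratory chain and ATP synthase had none of 81 tested genes called in limma, with 57 lower in the mean, a median of -0.07, and 3 lower and 1 higher at an unadjusted p under 0.05. The methods' t-test called none, with 2 lower and none higher without adjustment, and the replicate block called 2 lower. Cytosolic ribosomal proteins also had none of 81 called, with 29 lower, a median of 0.03, none lower and 1 higher without adjustment, and none in either direction by the methods' t-test. Scaling to the 75th percentile in place of quantile normalization moved these medians to -0.21 for the respiratory chain and to -0.13, the other direction, for cytosolic ribosomal proteins. The median of the members moved to -0.29 and that of all genes to -0.05. The respiratory chain also changed direction, to 0.04, without WT4. The per-array medians of both lists overlapped between genotypes, from -0.21 to 0.30 in WT and -0.21 to 0.17 in KO for the respiratory chain, and from -0.04 to 0.09 and -0.12 to 0.13 for cytosolic ribosomal proteins. The difference between the members and these lists was not tested.

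**Figure D5:**
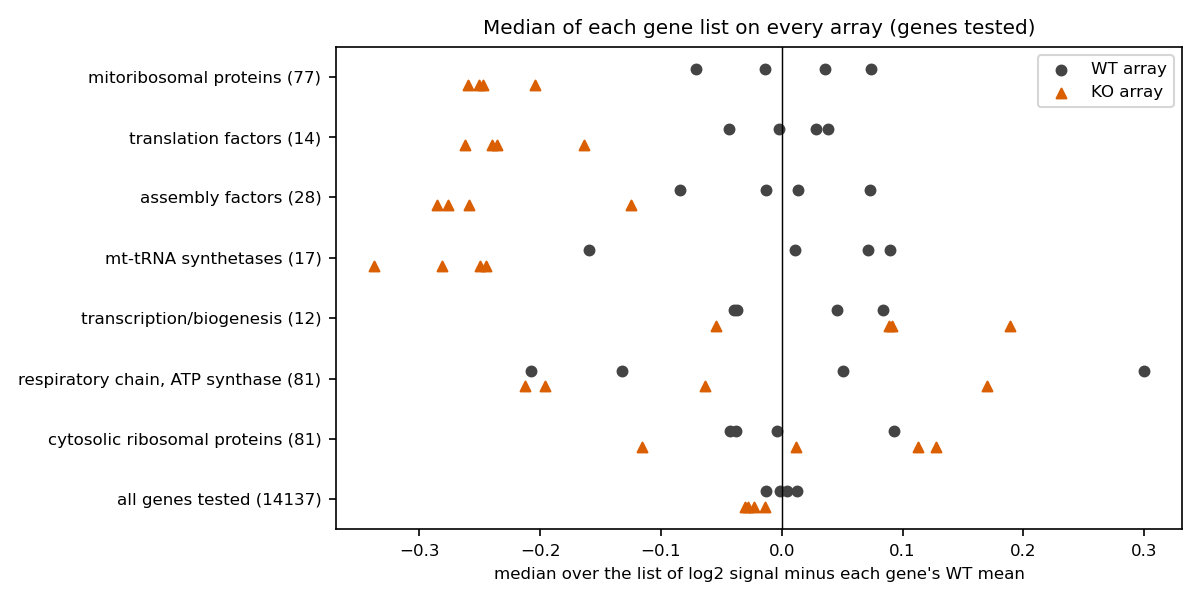
Median over each gene list of the log2 signal minus the WT mean of the same gene, on each WT array (dark circles) and each KO array (orange triangles), with the number of genes tested in brackets. The KO arrays lie below all WT arrays for mitochondrial ribosomal proteins (-0.26 to -0.20 against -0.07 to 0.07), translation factors, assembly factors and synthetases. They also do so, closer together, for all genes tested (-0.031 to -0.014 against -0.013 to 0.013). The genotypes overlap for the respiratory chain, cytosolic ribosomal proteins and regulators.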

How the data were processed

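RNA of 4 WT and 4 KO gland samples was measured on 8 one-colour Agilent arrays. The authors deposited the scanner output of Agilent Feature Extraction 10.7, in which intensity had been background-subtracted, and a table of log2 values that the authors had normalized by quantile in GeneSpring. Its columns followed the log2 scanner values of their arrays at r from 0.999 to 1.00 and had a median of 6.32, and it served as an alternative only.

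Processed intensities were quantile-normalized on the log2 scale, outlier spots left out and the spots of a probe averaged in limma 3.58.1 (R 4.3.3). Accessions named 27479 of 41174 probes through a GRCm38.p6 gene table. The design header named mm9, so probe coordinates are not given. Probes entered where well above background on all 4 arrays of 1 genotype, the brightest probe stood for a gene, and 14137 genes were fitted and adjusted together. Fits were tested on simulated data. Normexp used an offset of 50 on the median spot signal, since the files held no mean signal.

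WT and KO arrays of the same replicate number deviated together (r = 0.219, 0.165, 0.304 and 0.283), beside a mean of -0.079 for different numbers. The number was therefore used as a block, but only in the alternative with the replicate block. The fit as reported had no block, so its calls, SE and adjusted p leave this pairing out. What a replicate set shared was not given. Members and lists were chosen with earlier results of these data known. Named are called members (up to 15 each way by smallest p), the 3 brightest and 3 dimmest, members with an array set apart, members not tested, and up to 3 called genes per list. Mrpl2, Mrpl38, Mrpl12, Mrpl19, Mrps22 and other genes named for their group or direction were chosen after their values were seen. Alternatives were the scaling, background, filter, probe rule, authors' table, block, test and each array left out.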

Additional observations from a re-analysis of the deposited data

Results flagged for a closer look

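Within a genotype, 1 array stood far from the other 3 in 5 of the 154 groups of 4 arrays looked at (77 members in each genotype), where chance sets apart about 1 in 20. Mrpl24 measured 12.33 on KO4, beside 12.59 to 12.63 on the other KO arrays. Mrps30 measured 11.21 on KO4, beside 11.38 to 11.40. Mrps5 measured 10.35 on KO4, beside 10.86 to 10.95. Mrpl50 measured 10.92 on KO1, beside 11.29 to 11.33. Mrpl36 measured 12.31 on WT4, beside 12.61 to 12.63 on the other WT arrays. KO4 was the array set apart in 3 of the 5, on the low side, although it was the highest KO array in 39 of 77 members. None of these 5 genes was called between genotypes.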

How the results depend on the processing

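The median difference of the members stayed between -0.29 and -0.19 under every alternative, and between 65 and 70 of 77 members were lower. The number called lower was 20 as reported (beside 8.96% of all genes) and highest at 24 with trend and robust settings (9.29%). It was 23 with scaling to the 75th percentile (10.2%) and 23 after normexp (8.4%). It was 12 with no filter on dim probes (5.23%), 13 with the replicate block (10.8%) and 0 with slide position as a block (0.417%). When 1 array was left out it was 2 to 21 (1.75 to 11.9%). The number called higher was 1 as reported (beside 1065 of all 14137 genes), 3 after normexp (1077) and 2 in the authors' table (1093). It was 2 with trend and robust settings (1130), 0 with the replicate block (1237) and 0 with slide position as a block (78). When 1 array was left out it was 0 to 3 (267 to 1391). The cause was not tested. Leaving out 1 array, Mrpl24 (-0.02 as reported) ran from -0.0586 to 0.0536 and was above 0 without WT3 (0.0403) or KO4. Mrps30 (-0.03) ran from -0.0458 to 0.0168, above 0 without KO4, and was at 0.0411 after normexp. Mrps5 (-0.16) ran from -0.323 to 0.0171, above 0 without WT2. With slide and genotype the same, no alternative separates them. The replicate block changed the calls of Mrpl2, Mrpl4, Mrpl9, Mrpl10, Mrpl17, Mrpl38, Mrps2, Mrps10 and Mrps26 and added Mrpl42, and it changed no other call among the members.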
